A study of Mus musculus with 4 samples.

Results

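The plasminogen activators, their receptor, their zymogen and the serpins that hold them in check were followed in 4T1Br cells with and without a hairpin against YTHDF3. The set was Plau, Plat, Plaur, Plg, Serpine2, Serpinb2, Serpini1 and Serpinf2, 8 genes, and its members were the probe sets annotated with 1 of these symbols and no other. Each of 7 genes had 1 such probe set, out of 41345 probe sets and 22180 named genes on the array; Serpine2 was not analysed here. 4T1Br is a brain-seeking line derived from the mouse mammary carcinoma line 4T1. The 2 arrays of the group shControl came from cells transduced with a control lentivirus, and the 2 arrays of shYTHDF3 from cells transduced with a lentivirus against YTHDF3, a cytoplasmic reader of N6-methyladenosine in messenger RNA; all cells were selected with puromycin. The sample titles name the line 4T1 and the cell line label names it 4T1Br. The arrays measured RNA abundance as log2 values per probe set.

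Plasmin is the main fibrin-degrading protease and also acts on matrix proteins, growth factors and adhesion molecules. It is made from plasminogen (Plg) by urokinase (Plau), which acts largely at the cell surface on its receptor uPAR (Plaur), or by tissue plasminogen activator (Plat). Serpins trap these proteases: plasminogen activator inhibitor 2 (Serpinb2), neuroserpin (Serpini1) and protease nexin 1 (Serpine2) act on the activators, and alpha 2-antiplasmin (Serpinf2) acts on plasmin. In the brain, stromal plasmin is known to harm arriving cancer cells, and neuroserpin and Serpinb2 made by brain metastatic cells are known to shield them from it.

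Upstream sequence was available here for 5 of the 8 genes (RefSeq, GRCm38.p6). The stretch before the Plaur start is shown because the RNA of Plaur was measured above background, and that of Serpini1 because it is the brain serpin of the set. Each run is the 250 bases before 1 annotated start, 5′ to 3′, with the AP-1 motif (TGACTCA or TGAGTCA, each the reverse complement of the other) in capitals.
Plaur, chr7:24462233-24462482, plus strand: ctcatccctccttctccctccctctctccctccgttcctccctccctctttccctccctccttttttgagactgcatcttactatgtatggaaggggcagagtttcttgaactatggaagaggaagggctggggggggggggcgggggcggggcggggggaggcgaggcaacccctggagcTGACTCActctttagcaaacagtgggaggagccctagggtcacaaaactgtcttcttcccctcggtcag
Serpini1, chr3:75557243-75557492, plus strand: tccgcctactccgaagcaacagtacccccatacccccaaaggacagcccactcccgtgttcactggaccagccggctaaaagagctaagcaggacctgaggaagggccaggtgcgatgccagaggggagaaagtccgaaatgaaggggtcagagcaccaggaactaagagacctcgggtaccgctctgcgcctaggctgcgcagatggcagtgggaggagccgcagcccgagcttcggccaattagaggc
The Plaur stretch held 1 match, TGACTCA, whose first base lay 69 bases before the start. The other 5 stretches, those of Serpine2, Serpini1 and Serpinf2 and 2 of Serpinb2, held 0. Among 32851 mouse promoter stretches of this length 1466 held the motif, which is 4.46%. A match is a description of letters and not of binding.

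The targeted transcript, Ythdf3, was at 8.98 and 8.81 on the shControl arrays and at 8.21 and 8.16 on the shYTHDF3 arrays, a log2 difference of -0.71 (SE 0.10, limma adjusted p = 0.0355). This call ended without the filter on dim genes (limma adjusted p = 0.0866), with every probe set tested on its own (0.188) and with any 1 array left out (0.141 to 0.188), while the difference stayed between -0.79 and -0.63. Array medians lay between 4.42 and 4.47. Olfactory receptor genes, silent in most tissues, set the background at 4.28 (95th percentile over 1108 of their probe sets), and a gene was tested if its mean over the 4 arrays exceeded it. The defining epithelial keratins Krt8 and Krt18 were above background on all 4 arrays, whereas Epcam and Krt14 were below it on all 4. Nothing in the labels tells whether the 2 arrays of a group are separate cultures. The p-values therefore describe the spread between these arrays, possibly a technical one, and 2 arrays a group limit the precision.

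Both plasminogen activators were lower on both shYTHDF3 arrays, and 1 of them, Plat, fell by the test. Plat, which encodes tissue plasminogen activator, read 7.51 and 7.54 in shControl, against 7.005 and 6.85 in shYTHDF3. The shControl arrays nearly coincided, and a gap of 0.51 separated them from the higher shYTHDF3 array. The fall from 7.53 ± 0.02 to 6.93 ± 0.11 (SD, n = 2 each) was a log2 difference of -0.60 (SE 0.10, 95% interval -0.85 to -0.35, limma adjusted p = 0.0441), and 66.0% of the control level remained. In bulk RNA such a fall cannot be divided between fewer expressing cells and less RNA per cell.

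Plau, which encodes urokinase, read 8.74 and 8.72 in shControl against 7.91 and 8.20 in shYTHDF3. The 2 groups were again apart by 0.51, and here shYTHDF3 1 was the lower array, whereas for Plat it was shYTHDF3 2. The means were 8.73 ± 0.02 and 8.06 ± 0.21 (SD, n = 2 each). The difference of -0.67 (SE 0.12, 95% interval -0.98 to -0.37) corresponded to 62.7% of the control level and did not pass (limma adjusted p = 0.0544). The differences of Plau and Plat were not tested against each other; the spread between the shYTHDF3 arrays was wider for Plau. Plau passed with an intensity trend in the variance model (limma adjusted p = 0.00456), with that trend and robust estimation (0.00322) and with the dim-gene filter moved up to the overall median (0.0471).

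Plaur, the urokinase receptor, read 9.39 and 9.11 in shControl against 9.03 and 8.93 in shYTHDF3. The groups did not overlap, but the gap between them was only 0.09, while the 2 shControl arrays stood 1 on each side of their mean of 9.25 with an SD of 0.19. The difference of -0.27 (SE 0.12, 95% interval -0.57 to 0.03) did not pass (limma adjusted p = 0.263). It was -0.13 without shControl 1, the highest array, and -0.41 without shControl 2.

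**Figure D1:**
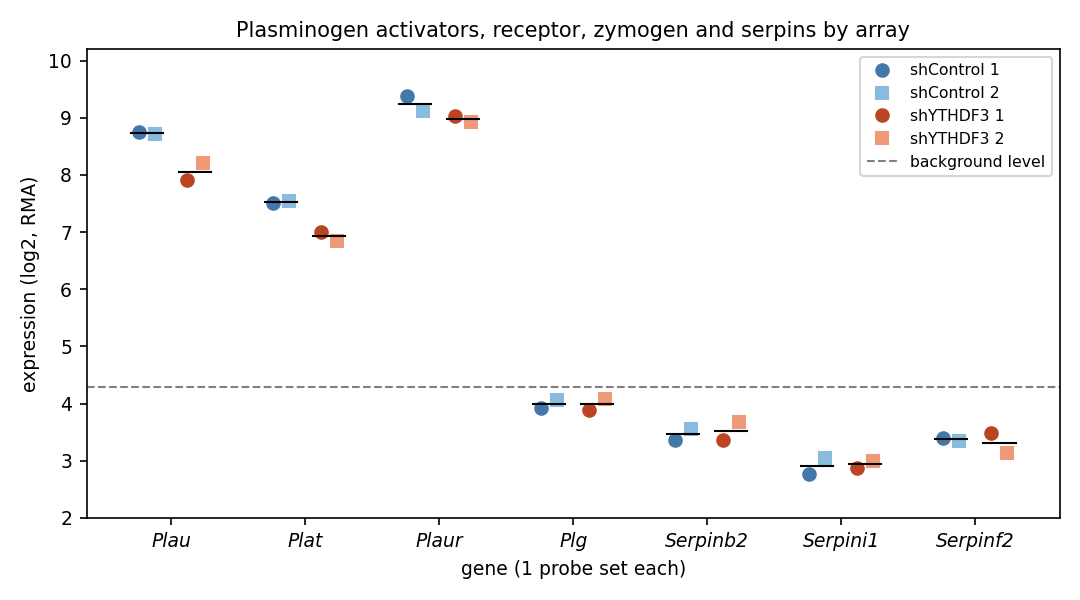
Log2 expression of the 7 measured genes (horizontal axis) on each array, with circles for replicate 1, squares for replicate 2, short black lines for group means (n = 2) and a dashed line for the background level of 4.28. Plau, Plat and Plaur lie above the background with both shYTHDF3 arrays under both shControl arrays, and the zymogen and 3 serpins lie below the background on every array.

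Of the 3 members tested, 1 fell, 0 rose and 2 did not pass; over all 13056 genes tested 2.73% were called, 1.45% as lower. The shYTHDF3 arrays lay under both shControl arrays in these 3 genes, an order that 25.7% of all genes tested also had. Among all genes tested, 1.28% had a difference as low as that of Plau or lower, 1.79% as low as that of Plat and 11.3% as low as that of Plaur. The Plat call ended with any 1 array left out, at limma adjusted p of 0.164 and 0.191 when shControl 1 or shControl 2 was dropped and 0.140 and 0.228 when shYTHDF3 1 or shYTHDF3 2 was dropped. It also ended when dim genes were kept in the fit (limma adjusted p = 0.110) and when every probe set was tested on its own (0.195). The Plat difference itself stayed between -0.68 and -0.52 over these and the other alternatives, and that of Plau between -0.82 and -0.52.

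**Figure D2:**
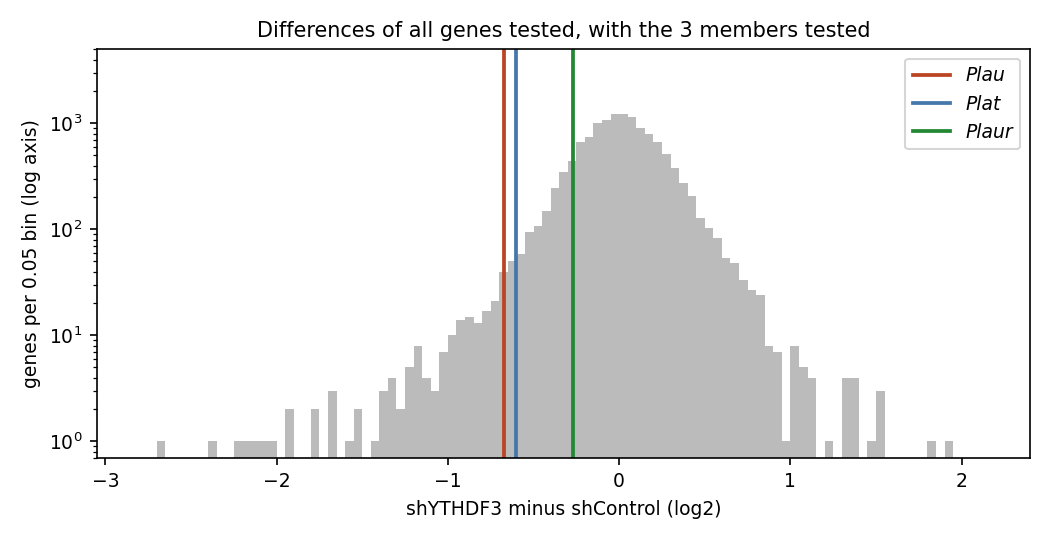
Histogram of shYTHDF3 minus shControl (log2, horizontal axis) over the 13056 genes tested, with the number of genes per bin on a log axis and vertical lines at Plau (-0.67), Plat (-0.60) and Plaur (-0.27). Plau and Plat lie in the lower tail and Plaur on the lower shoulder.

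**Figure D3:**
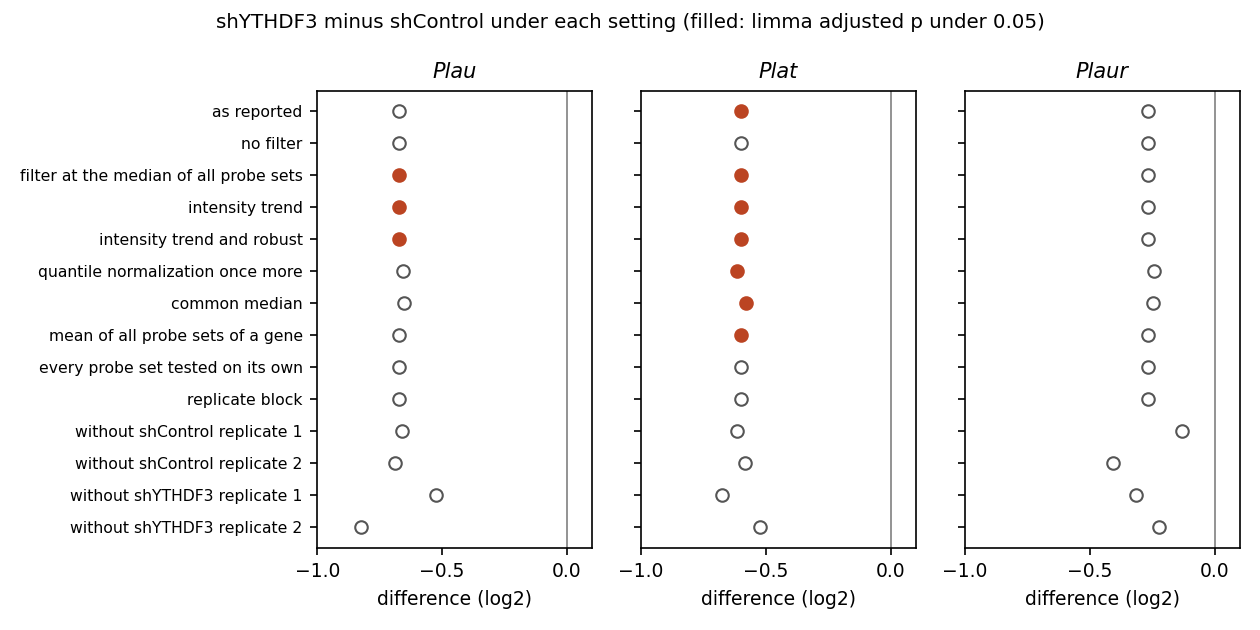
Difference of Plau, Plat and Plaur (log2, horizontal axes) as reported and under each of 13 alternatives (vertical axis), filled where limma's adjusted p was under 0.05. All points lie below 0; Plat is filled under 6 alternatives, Plau under 3 and Plaur under none.

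The zymogen and the measured serpins of the set were below background on every array, so none of the 4 was tested. Plg, which encodes plasminogen, a protein made chiefly by the liver, read 3.93 and 4.07 in shControl against 3.89 and 4.07 in shYTHDF3. Serpinb2 read 3.36 and 3.55 against 3.36 and 3.68. Serpini1, the gene of neuroserpin, read 2.77 and 3.04 against 2.87 and 2.997. Serpinf2, the gene of the plasmin inhibitor alpha 2-antiplasmin, read 3.40 and 3.34 against 3.48 and 3.13. In all 4 genes the arrays of the 2 groups overlapped, and the group means differed by -0.07 to 0.06. Values this low do not show whether the transcripts were absent, and a difference between the groups was not detectable at this signal.

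The other serpins on the array were examined as the family to which these inhibitors belong. Of 51 genes, 43 were below background and 8 were tested. Limma called 0 of the 8 (2.73% over all genes tested). At an unadjusted limma p under 0.05, 3 were lower and 0 higher, where 10.4% of all genes tested were lower and 12.2% higher. The median difference of these 8 was -0.27, against 0.01 over all genes tested, and that of all 51 without the filter was 0.0042. Serpinb6b, an intracellular serpin, read 6.64 and 6.37 in shControl against 5.83 and 5.83 in shYTHDF3, a difference of -0.67 (SE 0.12, limma adjusted p = 0.0522). Serpinb9b differed by -0.48 on its brightest probe set (SE 0.11, limma adjusted p = 0.0767) and by -0.20 as the mean of all its probe sets (0.324). Serpinf1, which encodes pigment epithelium-derived factor, a secreted serpin without protease inhibition, read 7.43 and 7.36 against 6.88 and 6.98 and differed by -0.46 (SE 0.10, limma adjusted p = 0.0671). Mouse clade B serpins form families of close copies, so which copy the probe sets of Serpinb6b and Serpinb9b measured is uncertain.

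Among other inhibitors of plasminogen activation and of plasmin, 8 of 10 listed genes had a probe set and 6 of these were below background. The measured serpins of this list, both tested genes among them, were already counted in the family above. Limma called 0 of the 2 tested (2.73% over all genes tested). At an unadjusted limma p under 0.05 there were 0, where 10.4% of all genes tested were lower and 12.2% higher. The median of -0.17 was -0.078 without shYTHDF3 1, -0.26 without shYTHDF3 2 and 0.020 over all 8 without the filter. Serpinb6a read 5.95 and 6.09 in shControl against 5.86 and 5.72 in shYTHDF3, a difference of -0.23. Serping1, the gene of C1 inhibitor, differed by -0.11 with overlapping groups, and by 0.15 without shYTHDF3 1. The general inhibitors A2m and Pzp, both of the alpha-macroglobulin family, were below background.

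Genes that bind plasminogen or uPAR moved both ways. Of 10 tested, 1 rose (1.28% did over all genes tested), 1 fell (1.45%) and 8 did not pass. Their median of -0.16 was -0.062 without shControl 2, -0.049 without shYTHDF3 2 and -0.089 with the filter at the overall median. Plgrkt, which encodes a membrane receptor that holds plasminogen near its activators, read 5.74 and 5.72 in shControl against 6.26 and 6.30 in shYTHDF3. It rose by 0.55 (SE 0.09, limma adjusted p = 0.0422), to 147% of the shControl level. Itgb3, the integrin beta 3 chain, a partner of uPAR and a receptor for vitronectin, read 8.09 and 8.05 against 6.79 and 6.90. It fell by 1.22 (SE 0.10, limma adjusted p = 0.0109), to 42.8% of the shControl level. Both genes had groups far apart relative to their replicate spread.

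The 2 subunits of the annexin A2 complex, another plasminogen receptor, differed in opposite directions, and neither passed. Anxa2 read 10.44 and 10.45 in shControl against 10.19 and 10.16 in shYTHDF3, a difference of -0.27 (limma adjusted p = 0.156). S100a10, the subunit whose terminal lysine binds plasminogen, read 11.75 and 11.81 against 11.99 and 11.88, a difference of 0.16 (limma adjusted p = 0.394), which was 0.097 without shYTHDF3 1. Itgav, which pairs with Itgb3, differed by -0.26 (limma adjusted p = 0.198), and Itga5, a chain of the fibronectin receptor, by -0.25 (limma adjusted p = 0.246) and by -0.15 without shControl 1.

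Of the listed genes that switch on the activators or start the contact pathway, 6 were tested. F12, F11 and Kng1 of the contact pathway were below background on every array and were not among them. Among the 6 tested, 1 rose (1.28% did over all genes tested), 0 fell (1.45%) and 5 did not pass. Their median of -0.15 was -0.052 without shControl 2. St14, which encodes matriptase, a membrane protease that activates pro-urokinase, read 5.10 and 5.31 in shControl against 6.43 and 6.12 in shYTHDF3. It rose by 1.07 (SE 0.14, limma adjusted p = 0.0312), to 209% of the shControl level. Ctsb, the gene of cathepsin B, which also activates pro-urokinase, differed by -0.22 (limma adjusted p = 0.235), and Ctsl, the gene of cathepsin L, by -0.37 (limma adjusted p = 0.0862). St14 was higher on the arrays on which Plau, which did not pass, was lower. With 2 groups this holds for any such pair of genes, and a link between them was not tested.

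Receptors that clear protease-serpin complexes from the surface gave no call. Limma called 0 of 5 tested (2.73% over all genes tested). At an unadjusted limma p under 0.05 there were 0, where 10.4% of all genes tested were lower and 12.2% higher. The median was -0.04. With 1 array left out that median ran from -0.12 (without shYTHDF3 2) to 0.044 (without shYTHDF3 1), and it was also positive without shControl 2 (0.0065) and over all 8 without the filter (0.014). Lrp1, the main uptake receptor for these complexes, read 8.64 and 8.68 in shControl against 8.49 and 8.48 in shYTHDF3, a difference of -0.17 (95% interval -0.39 to 0.05). Igf2r, a receptor of lysosomal sorting that also binds uPAR, differed by 0.18 (95% interval -0.07 to 0.44), and by 0.10 without shControl 1.

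Among 13 tested substrates of plasmin and its activators, 2 fell (1.45% did over all genes tested), 0 rose (1.28%) and 11 did not pass. Their median of -0.31 was -0.17 without shYTHDF3 1 and -0.100 over all 20 with a probe set, without the filter. Mmp3, whose proenzyme plasmin activates, read 8.34 and 8.26 in shControl against 7.36 and 7.46 in shYTHDF3 and fell by 0.89 (SE 0.10, limma adjusted p = 0.0240). Fn1, the gene of fibronectin, read 12.33 and 12.38 against 11.59 and 11.50 and fell by 0.81 (SE 0.09, limma adjusted p = 0.0262). Mmp13, a collagenase gene, differed by -1.01 (SE 0.24, limma adjusted p = 0.0849), its shYTHDF3 arrays reading 5.05 and 5.71. Mmp9, a gelatinase gene, differed by -0.39 (limma adjusted p = 0.123), and Thbs1, the gene of thrombospondin 1, by -0.44 (limma adjusted p = 0.0693).

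Fasl and L1cam, targets through which plasmin is known to act on cancer cells in the brain, had RNA near or below background in this line. The arrays measured this line only, so Fasl made by brain stroma was not measured. Fasl, the death ligand that plasmin releases from brain stroma, was below background, at 3.45 and 3.66 in shControl against 3.46 and 3.68 in shYTHDF3. L1cam, the adhesion molecule with which metastatic cells spread along vessels and which plasmin cleaves, was just above it, at 4.77 and 4.59 against 4.83 and 4.61. Its groups overlapped and differed by 0.04 (95% interval -0.26 to 0.34, limma adjusted p = 0.882), and by -0.05 without shControl 2 and -0.07 without shYTHDF3 1.

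**Figure D4:**
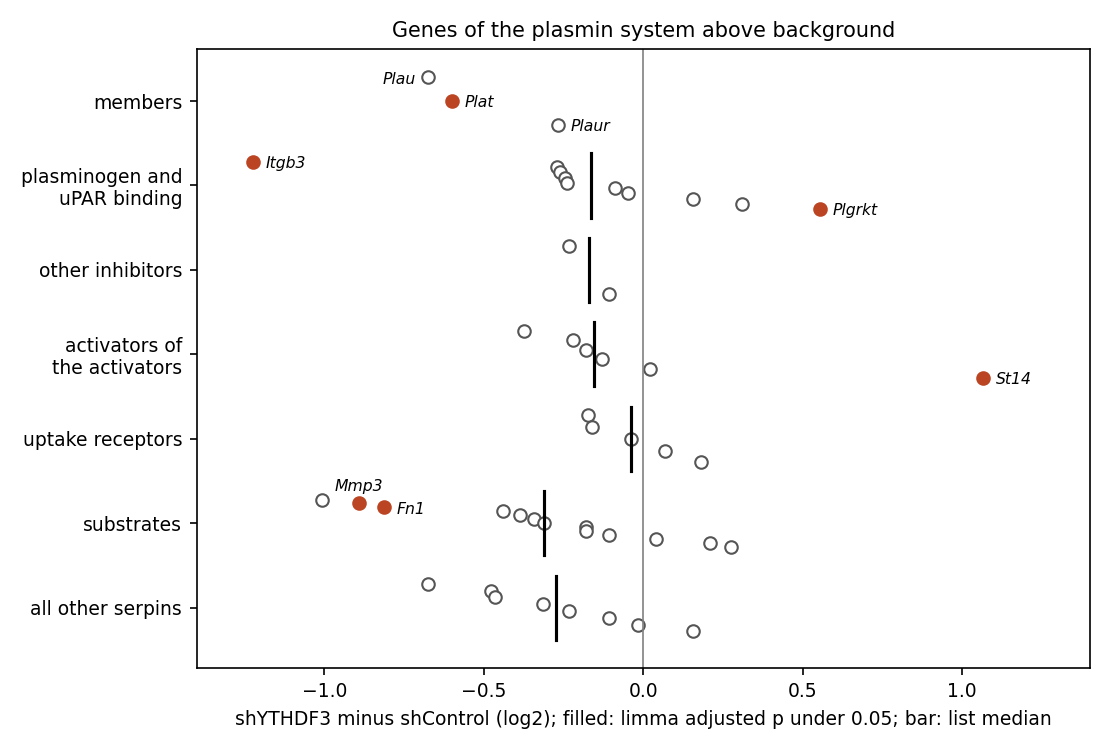
Difference of every tested gene of the plasmin system (log2, horizontal axis) by list (vertical axis), filled where limma's adjusted p was under 0.05, with a bar at the median of each list other than the members. Plat, Itgb3, Mmp3 and Fn1 are filled on the lower side and Plgrkt and St14 on the higher side.

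The calls of Itgb3, Plgrkt, St14, Mmp3 and Fn1 each ended with any 1 array left out, at limma adjusted p between 0.0744 (Itgb3 without shYTHDF3 2) and 0.225 (Plgrkt without shYTHDF3 2). Without the filter Itgb3 passed (0.0276), while Plgrkt (0.110), St14 (0.0725), Fn1 (0.0667) and Mmp3 (0.0625) did not pass limma's test. None of the 5 passed with every probe set tested on its own, at limma adjusted p between 0.162 (Itgb3) and 0.192 (Plgrkt).

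The genes whose values over the 4 arrays followed Plat most closely, by Euclidean distance after centring each gene on its own mean, were Amotl2, Arnt and Plod2, at distances of 0.033, 0.035 and 0.049 among 11815 genes compared. Amotl2, an angiomotin-like scaffold gene, read 6.81 and 6.83 in shControl against 6.29 and 6.18 in shYTHDF3, a difference of -0.59 (limma adjusted p = 0.0423). Its call ended without the filter (limma adjusted p = 0.107), with every probe set tested on its own (0.192) and with any 1 array left out (0.150 to 0.225). Arnt, the partner subunit of hypoxia-inducible factors, differed by -0.60 (limma adjusted p = 0.0527), and Plod2, a collagen lysyl hydroxylase gene, by -0.55 (limma adjusted p = 0.0537). The likeness rests on 4 arrays. These genes were picked by it, so differences near that of Plat follow from the selection and are no separate result.

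Vessel and myeloid cells also make these activators, so their markers were read on the same arrays, with those of the mammary epithelial line. Of 5 epithelial markers tested out of 7, 1 rose (1.28% did over all genes tested), 0 fell (1.45%) and 4 did not pass. The median was 0.31. Krt7, a keratin of simple epithelia, read 5.55 and 5.58 in shControl against 6.99 and 7.15 in shYTHDF3 and rose by 1.503 (limma adjusted p = 0.0082), a call that ended with any 1 array left out (0.0514 to 0.160). Krt18 differed by 0.57 (limma adjusted p = 0.0527) and Krt8 by 0.31 (0.151). Cdh1 differed by 0.10 and Cldn4 by -0.03, each with overlapping groups. The summed epithelial level was 11.33 and 11.46 (log2) in shControl against 11.91 and 11.83 in shYTHDF3. It was mostly that of Krt8 and Krt18.

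Of 7 leukocyte markers with a probe set, 1 had a mean above background, Cd68, which read 7.30 and 7.57 against 6.62 and 6.82 and differed by -0.72 (limma adjusted p = 0.0547). Ptprc, Adgre1, Itgam, Cd3e and Lyz2 lay at 3.004 to 4.28 on every array. Csf1r, with a mean below background and so not tested, read 4.21 and 4.35 in shControl against 4.04 and 4.09 in shYTHDF3. The summed leukocyte level of 7.88 and 8.10 in shControl against 7.51 and 7.55 in shYTHDF3 was mostly that of Cd68. The endothelial markers Pecam1, Cdh5 and Kdr lay between 3.91 and 4.42. Of 8 tested fibroblast and vessel markers out of 12, 2 fell (1.45% did over all genes tested) and 6 did not pass. The groups of 5 overlapped, and the median was -0.05. Dcn fell by 2.65 (limma adjusted p = 0.0047), a call that ended without shControl 1 (0.115) or shControl 2 (0.133). Pdgfra fell by 0.61 (limma adjusted p = 0.0471), a call that ended with any 1 array left out (0.163 to 0.216), without the filter (0.113) and with arrays set to a common median (0.0508). Pdgfra made up most of the summed level of that list, 10.21 and 10.19 against 9.65 and 9.64. None of Krt7, Dcn and Pdgfra passed with every probe set tested on its own, at limma adjusted p between 0.123 (Dcn) and 0.198 (Pdgfra). Of 4 neural and glial markers tested limma called 0 (2.73% over all genes tested), and their median was -0.02. At an unadjusted limma p under 0.05, 1 was higher (12.2% over all) and 0 lower (10.4%). The higher gene was Map2, at 6.74 and 6.22 in shControl against 7.29 and 7.31 in shYTHDF3. Syt1 differed by -0.35, and the groups of 2 overlapped. The list's summed level, which includes Map2, was 7.95 and 7.82 against 8.19 and 8.18. The part of these markers in the Plat and Plau differences was not tested.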

How the data were processed

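Trizol-extracted total RNA was labelled with biotin and hybridised (Affymetrix), per the labels' protocols. The deposited log2 values are the authors' RMA output, 1 per probe set and array, per the submitters' processing notes. The scale is inferred from RMA and the range of the values, since neither the log base nor the software is stated there. RMA makes arrays alike, so a shift of most genes one way would not be seen. Of 41345 probe sets, 23521 had 1 gene symbol, 1814 several and 16010 none; 23328 took RefSeq's current symbol by Entrez identifier and 193 kept the annotation's. A gene's value was its probe set with the highest mean. The 13056 genes above log2 4.28 were tested and 9124 left out. Groups were compared with limma 3.58.1 in R 4.3.3 (lmFit, eBayes, two-sided), Benjamini-Hochberg adjusted over all genes tested, threshold 0.05; differences are shYTHDF3 minus shControl. The step was tested on simulated data.

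The members and the 6 lists were chosen with earlier results of these data known. Named were every member, Ythdf3, per list the 3 largest rises and the 3 largest falls that passed (where none passed, the 2 largest differences) and the 3 genes nearest in pattern to a member that passed. Anxa2, S100a10, Itgav, Itga5, Ctsb, Ctsl, F12, F11, Kng1, Mmp9, Mmp13, Thbs1, Fasl, L1cam, Serpinf1, A2m, Pzp and Sorl1 were added after their values were seen. From the marker lists, Krt7, Krt8, Krt18, Cdh1, Cldn4, Dcn, Pdgfra, Cd68, Csf1r, Map2 and Syt1 were likewise named after their values were seen. 1 gene that the rule names is not reported here. The rule on pattern left out gene models without a proper name and receptor and small RNA genes. Alternatives were other filters, variance models, normalizations and uses of probe sets, the replicate number as a block, and each array left out; the lone array of a group was then assumed to vary like the other group. Plots were made in Python 3.11.15 (matplotlib 3.10.9).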

Additional observations from a re-analysis of the deposited data

How the results depend on the processing

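Plat, Plau and Plaur stayed lower in shYTHDF3 under all 13 alternatives. Their groups do not overlap, which fixes the direction when an array is dropped. Plat passed under 6 of them, Plau under 3 and Plaur under 0, with limma adjusted p of 0.00569 to 0.228, 0.00322 to 0.211 and 0.106 to 0.599. Against 1 member called as reported, limma called 0 without the filter on dim probe sets, 0 with every probe set tested on its own and 0 with the replicate block (2 at an unadjusted p under 0.05 in each), and 2 with the filter at the median, with an intensity trend and with that trend and robust estimation. Over all genes limma called 356 as reported and 43 without the filter. It called 1426 with the trend, 1465 with the robust trend, 0 over all probe sets and 51 with the replicate block. The filter at the median gave 488 of 12453 genes, repeated quantile normalization 417 of 13062 and the mean of all probe sets 386 of 12946. An unadjusted limma p under 0.05, in either direction, was reached by 3252 of 22180 genes without the filter. With every probe set on its own 3337 of 21867 reached it, and with the replicate block 2638 of 13056 genes. For plasminogen and uPAR binding the 2 calls became 1 without the filter, 5 with either trend, 0 over all probe sets and 1 with the replicate block. The 1 call among activators of the activators became 0, 3, 0 and 0 in the same order, and the 2 among substrates became 0, 5, 0 and 0. All other serpins, with 0 called, gave 1 with the filter at the median, 1 after repeated quantile normalization, 1 with the mean of all probe sets and 2 with either trend. With 1 array left out the calls ran from 0 to 12 over all genes and were 0 in the members and in every list. Such a fit has fewer residual degrees of freedom. The difference of Serping1 ran from -0.36 to 0.15 with 1 array left out, turning positive without shYTHDF3 1, and that of L1cam turned to -0.050 without shControl 2 and -0.069 without shYTHDF3 1. The arrays share only a replicate number, and those of 1 number did not deviate together (Pearson's r = -0.066 across 13056 genes, which are not independent replicates), so the block is given only here. Signal over background limits Plg, Serpinb2, Serpini1 and Serpinf2, all below 4.28.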

Other observations

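Sorl1, which encodes an uptake receptor of the low-density lipoprotein receptor family that also takes up urokinase bound to its inhibitor, read 3.76 and 3.81 in shControl, below the background of 4.28, and 4.46 and 4.56 in shYTHDF3, above it. Its mean over the 4 arrays was below the background, so it was not among the genes tested. Without the filter on dim probe sets its difference was 0.73 and did not pass (limma adjusted p = 0.0736), and the level in shControl was not measured above background. A further probe set, annotated to both Serpinb10 and Serpinb2, read 3.20 and 3.37 in shControl against 3.10 and 2.85 in shYTHDF3, below background on all 4 arrays.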
